A study of Mus musculus with 8 samples.

Results

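The genes described here are 19 genes of DNA replication and 25 genes of mitosis, 44 of the 32285 genes counted, taken by their symbols and all found. They were measured in cells of the ascending thoracic aorta, which carries blood up from the heart, from 3 wildtype mice of 81, 84 and 88 weeks. Wildtype aged animals were the only group, so neither age nor treatment could be compared, and each age is 1 animal. The cells were tagged with hashtag antibodies, which carry a barcode for each animal, then pooled for single-cell 3′ RNA sequencing, and the 4 gene expression and 4 hashtag libraries were counted together in 1 matrix. The cells of 1 hashtag are called a set below, and the unit of comparison is the sum of unique molecular identifiers (UMIs, captured molecules) over the cells of 1 class in 1 set. A level is given as CPM, the UMIs of a gene or list per 1000000 UMIs of such a sum. Since protocols that read the 3′ end count molecules and not fragments, no length correction was applied, and levels of different genes are set side by side only as counts of captured molecules.

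A cell that divides copies its DNA in S phase and separates the copies in mitosis, and the genes of both steps are switched on in turn. Replication genes encode the MCM helicase that opens the double helix, the factors that load and fire it, the sliding clamp, and the enzymes that supply deoxynucleotides. Mitosis genes encode the cyclin B kinase, the kinetochores that hold chromosomes, the spindle motors and the ubiquitin machinery that ends mitosis. Cells of an adult artery wall rarely divide, whereas thymocytes, the T cell precursors of the thymus, divide in bursts between steps of receptor gene rearrangement.

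Promoter sequences of the members are shown because the lists differ in the short motifs that lie near their starts. RefSeq promoter windows of the GRCm38.p6 build, from 250 bases before to 50 after the annotated start, were found for 37 members, 15 replication and 22 mitosis genes. Motifs were searched on both strands. They were the E2F letters TTTCCCGC, TTTGGCGC, TTTCGCGC and TTTGCCGC, the cell cycle homology region (CHR) letters TTTGAA and TTCGAA, and the CCAAT box. A motif on the other strand appears as its reverse complement, and hits can overlap, as 2 of the 3 in Mcm6 do. The genes were chosen after their motifs were seen. E2F letters are in capitals in Mcm6 at chr1:128359706-128359855 (- strand), Hells at chr19:38930840-38930989 (+ strand) and Cdc6 at chr11:98908001-98908150 (+ strand), chosen as replication genes with the motif before the start. CHR letters are in capitals in Mki67 at chr7:135716380-135716529 (- strand), Top2a at chr11:99024190-99024339 (- strand), Ube2c at chr2:164769779-164769928 (+ strand) and Kif11 at chr19:37376232-37376381 (+ strand), chosen likewise among mitosis genes. Cdk1 at chr10:69352913-69353062 (- strand) is shown because both kinds of letters are there. Each line is the 150 bases before the annotated start, written 5′ to 3′ on the strand of the gene.
Mcm6: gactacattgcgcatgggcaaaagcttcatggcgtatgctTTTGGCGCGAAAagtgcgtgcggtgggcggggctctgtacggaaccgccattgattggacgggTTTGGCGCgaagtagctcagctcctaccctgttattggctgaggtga
Hells: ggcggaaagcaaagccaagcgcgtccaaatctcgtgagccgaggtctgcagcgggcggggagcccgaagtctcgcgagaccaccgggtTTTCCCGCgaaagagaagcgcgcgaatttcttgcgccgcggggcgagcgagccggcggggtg
Cdc6: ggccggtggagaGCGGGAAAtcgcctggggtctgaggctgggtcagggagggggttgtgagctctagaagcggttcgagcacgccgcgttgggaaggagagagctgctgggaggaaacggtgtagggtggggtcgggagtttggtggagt
Mki67: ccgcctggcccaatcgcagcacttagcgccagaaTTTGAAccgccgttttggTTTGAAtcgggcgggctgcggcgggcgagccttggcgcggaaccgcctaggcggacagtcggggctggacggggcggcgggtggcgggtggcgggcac
Top2a: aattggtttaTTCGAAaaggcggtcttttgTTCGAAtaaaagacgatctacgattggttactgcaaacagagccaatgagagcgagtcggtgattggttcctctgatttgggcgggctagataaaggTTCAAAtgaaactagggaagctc
Ube2c: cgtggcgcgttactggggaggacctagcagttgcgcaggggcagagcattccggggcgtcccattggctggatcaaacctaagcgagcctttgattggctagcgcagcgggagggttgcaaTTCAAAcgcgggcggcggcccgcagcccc
Kif11: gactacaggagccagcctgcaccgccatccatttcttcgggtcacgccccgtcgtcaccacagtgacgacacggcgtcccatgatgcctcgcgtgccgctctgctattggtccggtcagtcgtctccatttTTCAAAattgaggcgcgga
Cdk1: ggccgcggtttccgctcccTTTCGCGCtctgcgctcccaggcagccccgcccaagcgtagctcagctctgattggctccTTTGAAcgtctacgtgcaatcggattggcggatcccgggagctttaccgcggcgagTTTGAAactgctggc

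In the whole window of 300 bases, E2F letters were in 10 of 15 replication genes (66.7%) and 1 of 22 mitosis genes (4.55%), against 2.6% of the 27025 genes in the table. CHR letters were in 2 of 15 replication genes (13.3%) and 17 of 22 mitosis genes (77.3%), against 21.7% of all genes. CCAAT was in 12 of 15 replication genes and 18 of 22 mitosis genes, against 41.1% of all genes. In the 150 bases from 100 before to 50 after the start, CHR letters were in 17 of 22 mitosis genes and 9.87% of all genes, and E2F letters in 7 of 15 replication genes and 1.45% of all genes. In the 150 bases before the start, as printed, CHR letters were in 7 of 22 mitosis genes and 11.2% of all genes, and E2F letters in 5 of 15 replication genes and 1.44% of all genes. A match is a description of letters in a window and not a bound site.

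The matrix held 26916 barcodes with 142108011 gene UMIs. Of these, 11301 were kept for their number of genes and UMIs and low mitochondrial share, and 10352 were clustered with at most 1 hashtag and no doublet call, 4135 of them with 1 hashtag. The sets held 564 cells (5155252 UMIs), 2532 cells (17768536 UMIs) and 1039 cells (7974082 UMIs) at 81, 84 and 88 weeks. No barcode appeared more than once. The members, further cell cycle genes and histone genes were left out of the clustering. Named from markers, the classes used with 1 hashtag were 1685 T cell-like cells (33, 1295 and 357 by set), 939 endothelial-like, 487 smooth muscle-like and 211 fibroblast-like cells. A further 4299 smooth muscle-like and 1077 fibroblast-like cells had no hashtag and are given beside them. Clusters that carried markers of 2 types kept both names, and the largest of them held 403 cells with smooth muscle and T cell markers. RNA of T cells was also counted in wall cells. Summed over 11 T cell genes it reached 10616 to 11124 CPM in T cell-like sets, 196 to 259 CPM in endothelial-like, 79.1 to 188 CPM in smooth muscle-like sets and 182 to 1448 CPM in fibroblast-like sets. Its part in the wall results was not tested.

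Replication and mitosis genes were high in T cell-like cells and low in the cells of the wall. The replication list summed to 4534, 3347 and 3461 CPM in the T cell-like cells of the 81-, 84- and 88-week sets, and the mitosis list to 8282, 8088 and 7621 CPM. In endothelial-like cells the replication list stood at 239, 235 and 306 CPM and the mitosis list at 84.8, 77.4 and 136 CPM. In smooth muscle-like cells they stood at 134, 131 and 147 CPM and at 38.4, 50.3 and 45.4 CPM. The T cell-like sets lay above every wall set for both lists, with no overlap. Fibroblast-like cells had 324, 208 and 277 CPM of replication genes and 207, 154 and 102 CPM of mitosis genes.

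**Figure D1:**
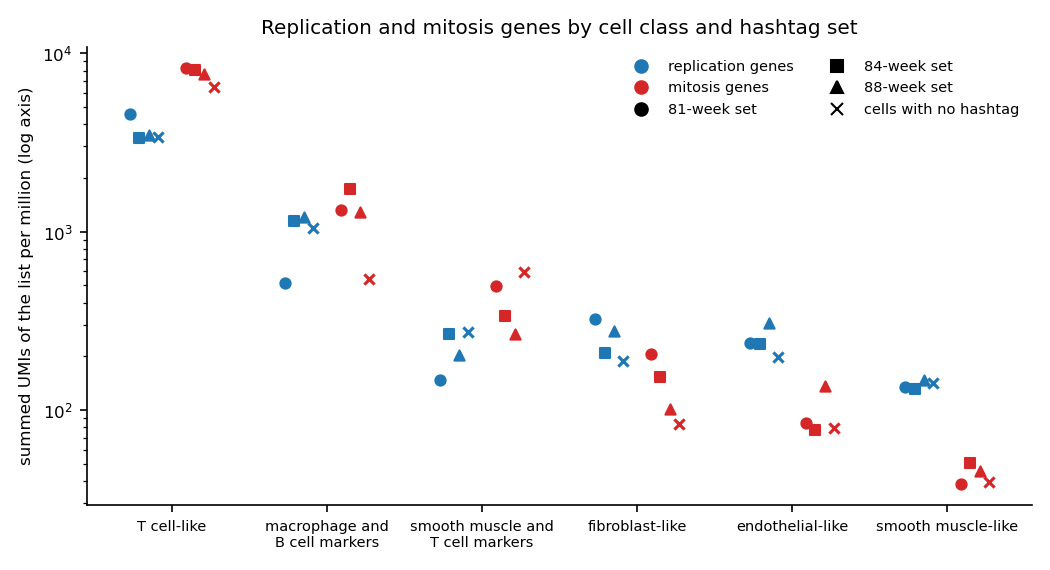
Summed UMIs of the 19 replication genes (blue) and 25 mitosis genes (red) as CPM on a log axis, by cell class, with 1 symbol per hashtag set and crosses for cells with no hashtag. T cell-like cells are the 1 class of the 4 compared in which mitosis genes lie above replication genes in every set.

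The balance of the lists also differed. The log2 ratio of mitosis to replication UMIs was 0.87, 1.27 and 1.14 in the T cell-like sets, a mean of 1.09 ± 0.206 (SD, n = 3). It was below 0 in every wall set, with means of -1.42 ± 0.227 in endothelial-like, -1.62 ± 0.221 in smooth muscle-like cells and -0.84 ± 0.532 in fibroblast-like cells (SD, n = 3). Thus T cell-like cells held more mitosis than replication molecules and wall cells the reverse. Cells with no hashtag had 0.94 in T cell-like, -1.33 in endothelial-like, -1.85 in smooth muscle-like sums and -1.17 in fibroblast-like sums. Within the same animals the ratio in T cell-like cells lay above that in endothelial-like cells by 2.52 ± 0.315, smooth muscle-like cells by 2.72 ± 0.0980 and fibroblast-like cells by 1.94 ± 0.569 (SD, n = 3), in 3 of 3 sets each. The exact paired permutation test, two-sided, gave p = 0.25 for each of the 3 comparisons (adjusted 0.25), the smallest that 3 pairs can give, so it cannot pass 0.05.

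Within T cell-like cells the most abundant replication members were the clamp genes. Pcna, the sliding clamp that holds polymerases on DNA, had 614, 439 and 441 CPM in the 81-, 84- and 88-week sets. Pclaf, a factor that binds the clamp, had 844, 632 and 633 CPM. Both were highest in the set of 81 weeks, which rests on 33 cells. The MCM helicase genes ranged in mean level from 68.5 CPM (Mcm5) to 177 CPM (Mcm6), and Mcm6 had 243, 137 and 153 CPM. Mcm5 had 76.7, 62.6 and 66.2 CPM. Of the loading and firing factors, Ccne2, the cyclin E2 that drives entry into S phase, was the highest with 83.1, 52.0 and 76.1 CPM, and Gins2 of the GINS complex was the lowest member of the list with a mean of 29.1 CPM. Atad2, a chromatin ATPase, had 448, 299 and 305 CPM. Clspn, which signals stalled forks, had 243, 155 and 154 CPM. Rrm1, the large subunit of ribonucleotide reductase, had 224, 188 and 195 CPM. The set of 81 weeks was the highest for these 3 genes too.

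The median of the members' mean levels in T cell-like cells was 174 CPM for replication and 173 CPM for mitosis genes, and the highest members were mitosis genes. Top2a, the topoisomerase that untangles chromosomes, had 1586, 1404 and 1306 CPM, the highest mean of all members (1432 CPM). Mki67, the Ki-67 protein on the surface of mitotic chromosomes, had 1401, 1487 and 1364 CPM. Mki67 gave 12163 and Top2a 11558 of the 66620 mitosis UMIs in T cell-like cells. Cenpf, a kinetochore protein, had 595, 632 and 570 CPM. Ube2c, the ubiquitin-conjugating enzyme of the anaphase-promoting complex, had 486, 558 and 535 CPM. Nusap1, which binds spindle microtubules, had 403, 332 and 331 CPM. Of the passenger complex, Birc5 (survivin) had 358, 254 and 264 CPM, and of the cyclins, Ccnb2 had 141, 178 and 189 CPM. The sets lay close together for Mki67 and Cenpf, and the lowest member, Knstrn of the kinetochore, had 12.8 CPM in the 81-week set against 62.7 and 60.4 CPM in the others.

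**Figure D2:**
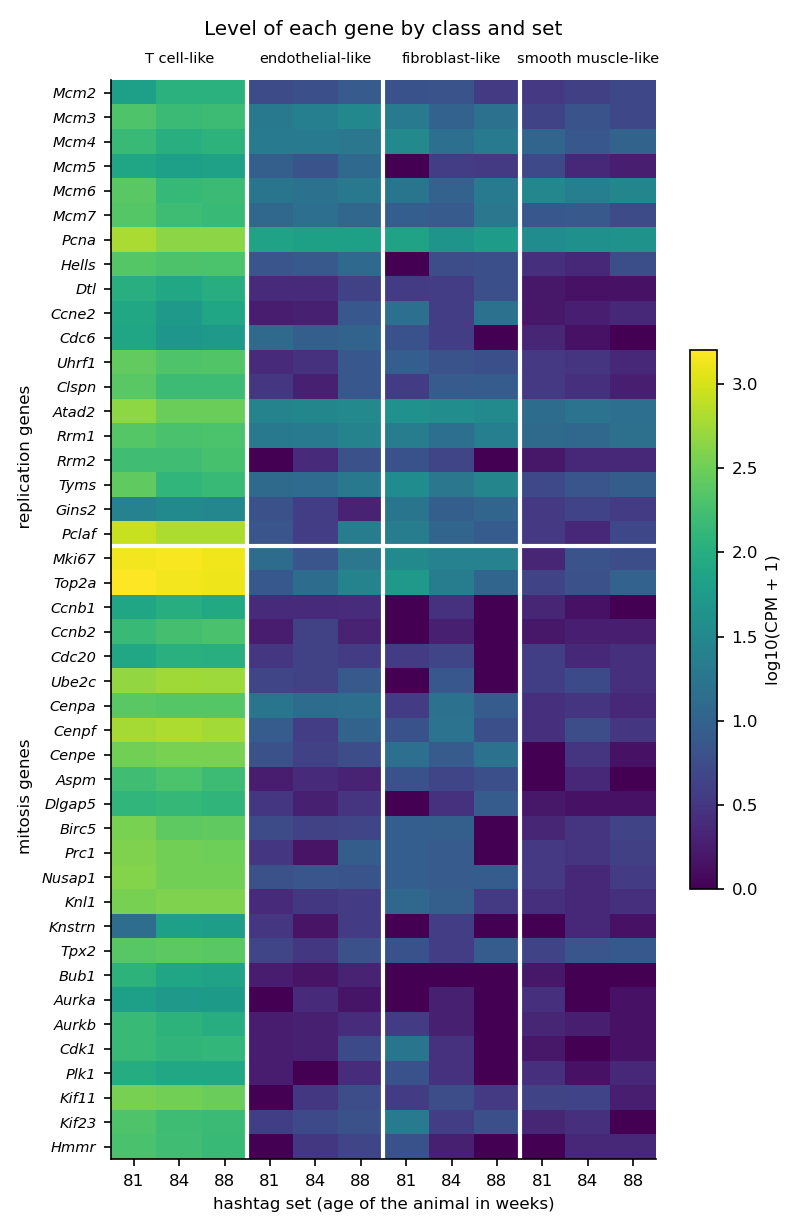
Level of each of the 44 genes as log10(CPM + 1) by colour, with genes in rows and 4 cell classes by 3 hashtag sets in columns. T cell-like columns are bright in every row. Among replication genes Pcna and Atad2 stand out in the wall classes, and Mcm6 in smooth muscle-like cells.

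The first test set T cell-like against endothelial-like sums of the same animals. The level of Pcna was 68.4, 64.9 and 64.7 CPM in endothelial-like sets, that of Mki67 12.6, 5.99 and 17.4 CPM, and that of Top2a 6.70, 12.4 and 25.8 CPM. All 44 members passed the filter on low counts, through the T cell-like sums where they were high, so their count and medians are a description and not support. They were called higher in T cell-like cells by the quasi-likelihood test of edgeR, with the set as a block, at an adjusted p under 0.05 and a log2 fold change of at least 1. Of all genes tested, 21.7% were called higher, 27.4% lower and 49.1% either way. The median log2 fold change was 3.38 over replication members and 6.19 over mitosis members, against 0.01 over all genes tested. The least difference was that of Cdc6, the MCM loader, with a log2 fold change of 2.35 (SE 0.240, edgeR adjusted p = 5.97e-22), and the greatest that of Knl1, a kinetochore scaffold, with 7.20 (SE 0.221). Mki67 differed by 6.77 (SE 0.155) and Pcna by 2.70 on the log2 scale. Every T cell-like set lay above every endothelial-like set for all 44 members. The same count over all genes is not given, so this too is a description and not support.

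Against smooth muscle-like cells the same 44 members were called higher in T cell-like cells by edgeR, where 26.0% of all genes were, with 28.6% lower and 54.6% either way. The median log2 fold change was 4.97 over replication members and 7.19 over mitosis members, against 0.05 over all genes. Mcm6 differed least, by 2.39 on the log2 scale (SE 0.140, edgeR adjusted p = 4.61e-64), and smooth muscle-like cells held 29.5, 22.8 and 28.3 CPM of it. Bub1, a kinase of the spindle checkpoint, differed most, by 8.47 (SE 0.427), but smooth muscle-like sums held 1 UMI of it against 630, a ratio of levels of 477 with an exact 95% counting interval of 85.3 to 18875, and the fitted value depends on the prior count. Mki67 had 1.18, 5.59 and 4.80 CPM in smooth muscle-like cells and differed by 8.19. Of the other genes of these pathways, 56 of 60 further replication genes and 69 of 70 further mitosis genes tested were higher than in endothelial-like cells, and 57 of 59 and 68 of 70 than in smooth muscle-like cells. The most abundant of them in T cell-like cells were Dut (452 CPM), which clears dUTP, Nasp (267 CPM), a histone chaperone, Smc4 (792 CPM) of condensin and Ube2s (636 CPM), which extends ubiquitin chains. Both comparisons share the T cell-like sums. Classes came from the same cells, and genes that vary with the members could still shape them.

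To compare cells of different depth, each cell was thinned to 1000 UMIs and called cycling with at least 2 different replication members or at least 2 different mitosis members. No cell was shallower than that. Among T cell-like cells 51.5%, 48.3% and 45.9% were cycling at 81, 84 and 88 weeks (48.6% ± 2.80, SD, n = 3). Mitosis-positive cells were 45.5%, 43.6% and 40.3%, and replication-positive cells 42.4%, 37.0% and 35.9%. The exact binomial 95% intervals of the sets overlapped, and that of the smallest set ran from 33.5% to 69.2%. Intervals cover counting error only. Without thinning, 63.3% of T cell-like cells passed the rule.

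The T cell-like cells with 1 hashtag split by this rule into 539 with both kinds of genes, 185 with mitosis genes alone, 82 with replication genes alone and 879 with neither. Their median depths were 6364, 4662, 4773 and 2969 UMIs. The groups were made from the member UMIs, so levels within them are a description with no test, and the level given is the pooled CPM. Members of 1 list differed in where they peaked. Mcm2 to Mcm7, Hells, Dtl, Ccne2 and Cdc6, 10 of 19, were highest in cells with replication genes alone. The remaining 9, among them Pcna, Pclaf and the deoxynucleotide genes Rrm1, Rrm2 and Tyms, were highest in cells with both. Mcm6 stood at 332 CPM in replication-only cells, 227 CPM with both, 42.3 CPM with mitosis genes alone and 22.8 CPM with neither. In T cell-like cells with no hashtag its order was the opposite, with 229 CPM in 16 replication-only cells and 286 CPM in 43 cells with both. There Mcm2, Mcm7, Hells and Ccne2 were also higher in cells with both, whereas Mcm3, Mcm4, Mcm5, Dtl and Cdc6 stayed higher in replication-only cells.

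Rrm2, the small subunit of ribonucleotide reductase, was at 106 CPM in replication-only cells, 321 CPM with both and 76.4 CPM in mitosis-only cells. Pclaf followed the same order with 446, 1161 and 388 CPM. Of the 25 mitosis members, 22 were highest in mitosis-only cells, and Top2a, Bub1 and Aurkb in cells with both. Aspm, a protein of the spindle poles, was at 4.23 CPM in replication-only cells, 255 CPM with both and 540 CPM in mitosis-only cells. Ube2c was at 57.1, 780 and 1415 CPM and Mki67 at 423, 2287 and 2696 CPM. Mki67 and Top2a were thus the 2 mitosis members above 200 CPM in replication-only cells. Of 60 further replication genes, which the split did not use, 41 were highest in cells with both and 18 in replication-only cells. Of 71 further mitosis genes, 28 were highest in cells with both and 42 in mitosis-only cells. These counts are a description, since the same counts over all genes are not given and the groups differ in depth.

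**Figure D3:**
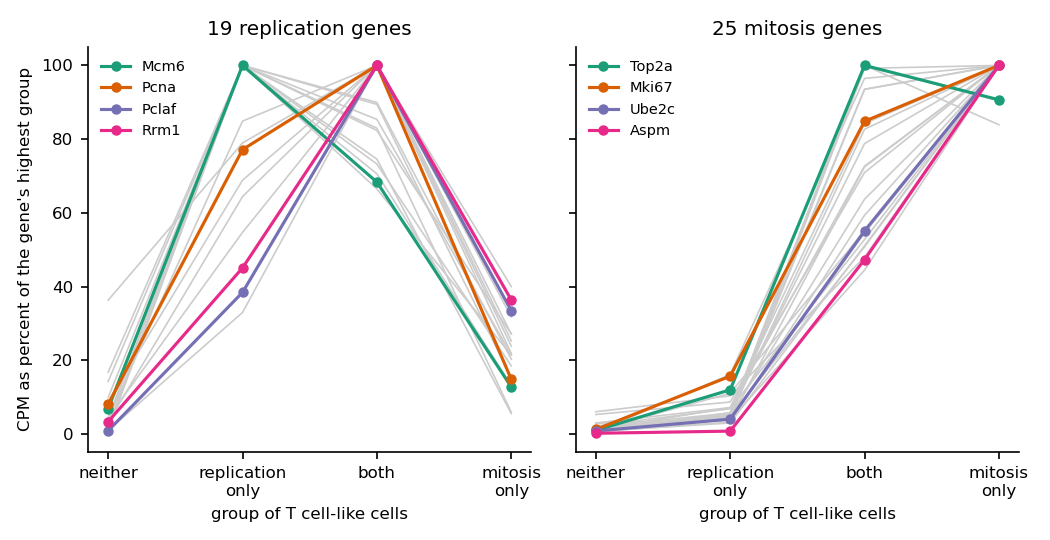
Pooled CPM of each gene as a percent of its highest group, in T cell-like cells with neither kind of genes, replication genes alone, both, or mitosis genes alone; grey lines are the other members. Mcm6 peaks in replication-only cells (332 CPM), Pclaf in cells with both (1161 CPM) and Aspm in mitosis-only cells (540 CPM).

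T cell-like cells were clustered again for thymocyte-like stages, without the members and without other genes whose level followed them beyond a correlation of 0.15. Stage markers stayed in, and 10 of them were beyond that limit, so the clusters could still follow the member level. A cluster of 709 cells was double-positive-like, a thymocyte stage with both CD4 and CD8, from 3 of 10 markers, with 2999 and 3146 CPM of the recombinase gene Rag1 at 84 and 88 weeks. Its marker score only just passed the limit for naming, which was set after seeing the data. A cluster of 197 cells was selected-like, the stage after receptor testing, with 9 of 9 markers raised, and 7 of 10 markers of mature T cells were raised too. Ccl5, Nkg7 and Klra9, genes of cytotoxic lymphocytes, were among its leading genes, so the name covers cells beyond that stage. Clusters 0 (459 cells) and 2 (390 cells) stayed unnamed, since no stage reached the limit. Wee1, Cenpp and Cenpi, genes of the cell cycle, were among the leading genes of cluster 0, and Plac8, Tcrg-C2 and Myc were among the top genes of cluster 2, along with Trgv2 and the kinetochore gene Cenph. Whether these clusters are stages that divide or follow the cell cycle cannot be told apart here, and they were not tested. The set of 81 weeks had 4 to 10 cells in these clusters and is left out of the stage values printed, while its cluster 0 sum of 10 cells entered the fit of stages. The small clusters 4, 5 and 6 (32, 22 and 49 cells) were unnamed as well, and their 84-week sums entered that fit. Among their leading genes were Hba-a2 in cluster 4, Fabp4 and Cdh5 in cluster 5, and Carmn and Eln in cluster 6. Whether they hold doublets was not tested.

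The double-positive-like cluster cycled little. Of its cells 12.5% (62 of 496; 95% interval 9.72 to 15.7) were cycling at 84 weeks and 9.42% (13 of 138; 5.11 to 15.6) at 88 weeks. Replication genes summed to 486 and 460 CPM and mitosis genes to 1091 and 943 CPM. In the selected-like cluster 9.45% (12 of 127; 4.98 to 15.9) and 11.6% (5 of 43; 3.89 to 25.1) were cycling, with 788 and 826 CPM of replication and 1319 and 1060 CPM of mitosis genes. The intervals of the 2 stages overlapped in both sets. Clusters 0 and 2 were the opposite, with 83.4% and 82.2% cycling in cluster 0 and 89.8% and 98.5% in cluster 2 at 84 and 88 weeks. Double-positive markers were counted there too. Rag1 stood at 1113 and 963 CPM in cluster 0 and 709 and 479 CPM in cluster 2. Dntt stood at 701 and 707 CPM and at 714 and 744 CPM, against 1028 and 903 CPM in the double-positive-like cluster. The low share of that cluster is thus not the share of all cells with such markers.

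The unnamed cycling clusters differed in their balance. Cluster 0 held 4940 and 4723 CPM of replication genes and 14494 and 16145 CPM of mitosis genes at 84 and 88 weeks, and cluster 2 held 4825 and 5685 CPM and 10309 and 8277 CPM. Mki67 was at 2925 and 3109 CPM in cluster 0 and at 1769 and 1341 CPM in cluster 2. Mcm6 was the other way round, with 146 and 144 CPM in cluster 0 and 226 and 291 CPM in cluster 2. By the mean of the 84- and 88-week sets, 13 replication members, among them the 6 MCM genes, Hells, Cdc6 and Pclaf, were highest in cluster 2, and 24 of 25 mitosis members and 6 replication members in cluster 0. The median depth was 4436 UMIs in cluster 0 and 7836.5 UMIs in cluster 2.

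**Figure D4:**
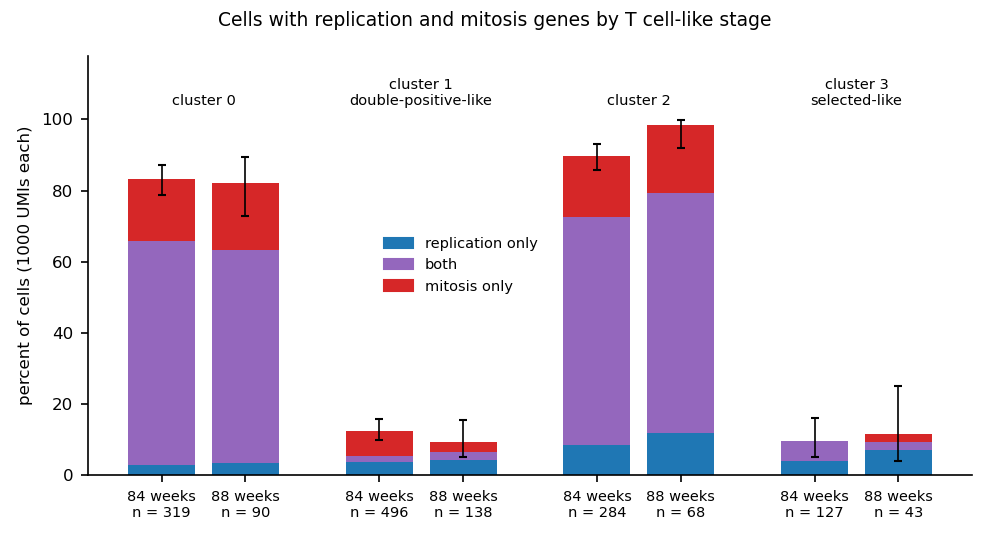
Percent of cells with replication genes alone, mitosis genes alone or both, each cell thinned to 1000 UMIs, in 4 T cell-like clusters at 84 and 88 weeks; black bars are exact binomial 95% intervals of the total and n is the number of cells. Clusters 0 and 2 lie above 80% and the double-positive-like and selected-like clusters below 13%.

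The selected-like stage was tested against the double-positive-like stage in the 2 sets that filled both, in 1 fit of all stage sums. Of 44 members, all tested, edgeR called 8 higher and 1 lower in the selected-like stage, where 6.41% of all genes were called higher, 4.24% lower and 10.7% either way. The filter on low counts used all stage sums, clusters 0 and 2 included, where the members were high. Passing it thus says little about the 2 stages compared. The median log2 fold change was 0.74 over replication members and 0.23 over mitosis members, against 0.07 over all genes. The called genes were 7 replication genes (Pcna, Pclaf, Mcm3, Mcm5, Hells, Clspn and Ccne2) and the spindle motor gene Kif11. Pcna had 65.0 and 62.6 CPM in the double-positive-like and 125 and 177 CPM in the selected-like stage, with no overlap, a log2 fold change of 1.21 (SE 0.231, edgeR adjusted p = 6.72e-06, higher in 2 of 2 sets). Pclaf had 42.2 and 33.7 CPM against 125 and 75.7 CPM, a log2 fold change of 1.59 (SE 0.266, edgeR adjusted p = 1.83e-07).

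The largest difference upward was that of Ccne2, with 2 and 0 UMIs in the double-positive-like stage against 3 and 4 UMIs in the selected-like stage. Its log2 fold change of 3.14 (SE 0.975, edgeR adjusted p = 0.0121) rests on 7 against 2 UMIs, a ratio of levels of 9.50 with an exact 95% counting interval of 1.81 to 93.8. Gins2 was the gene called lower, with 33 and 4 UMIs against 1 and 0 UMIs (edgeR log2 fold change -3.48, SE 0.942, adjusted p = 0.0029). Its level was 13.6 times as high in the double-positive-like stage, with a counting interval of 2.30 to 552. Mki67 had 164 and 137 CPM against 235 and 278 CPM and Top2a 133 and 60.2 CPM against 226 and 132 CPM, and neither reached the fold asked for (log2 fold changes 0.79 and 0.97). Of the further genes, 6 of 59 replication genes were higher and 4 lower, and 4 of 70 mitosis genes were higher. DESeq2 called 2 members higher and 0 lower in place of 8 and 1. With cells under 10% mitochondrial UMIs the counts were 2 and 0, and with clusters made without the listed genes alone 2 and 3.

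In the wall, cells that passed the cycling rule were few in every class. They made up 3.21%, 1.28% and 5.00% of endothelial-like cells at 81, 84 and 88 weeks (3.16% ± 1.86, SD, n = 3), 7.5%, 2.4% and 6.52% of fibroblast-like cells (5.47% ± 2.71) and 1.47%, 2.29% and 1.14% of smooth muscle-like cells (1.63% ± 0.591). Every wall set lay below every T cell-like set. The fibroblast-like values rest on 3 cells in each set. Among cells with no hashtag, 3.45% of endothelial-like (4 of 116), 1.95% of fibroblast-like (21 of 1077) and 0.651% of smooth muscle-like cells (28 of 4299) were cycling. Without thinning the means were 31.3%, 43.5% and 48.8% in endothelial-like, fibroblast-like and smooth muscle-like cells, at median depths of 4187, 8164 and 12034 UMIs, so the unthinned share followed depth in the wall. With at least 3 members the mean share fell in every wall class, to 0.222% in endothelial-like cells. A low level spread over many cells can also pass a rule of 2 members, and whether these cells divide was not tested. No class was known to lack these genes, so the background of the rule was not measured. The replication level differed between the wall classes, so the share of 1 class is no measure of background in another.

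Replication genes made most of these calls in endothelial-like cells and in cells with no hashtag. Replication-positive cells were 2.81%, 1.03% and 4.00% of endothelial-like cells at 81, 84 and 88 weeks, and mitosis-positive cells 0.402%, 0.256% and 1.33%. In fibroblast-like cells they were 7.5%, 0.8% and 4.35% against 2.5%, 1.6% and 2.17%, so that the set of 84 weeks had the opposite order. In smooth muscle-like cells with 1 hashtag they were level, with 4 of 487 each, as 1.47%, 1.14% and 0% replication-positive against 0%, 1.14% and 1.14% mitosis-positive. Of smooth muscle-like cells with no hashtag, 25 of 4299 (0.582%) were replication-positive and 3 (0.0698%; 95% interval 0.0144 to 0.204) mitosis-positive. Fibroblast-like cells with no hashtag had 17 and 4 of 1077. Replication-positive cells outnumbered mitosis-positive ones in both of these groups with no hashtag, whereas in T cell-like cells the order was the opposite in all 3 sets.

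Cells of the wall were then split by T cell RNA, called with at least 2 UMIs over the 11 T cell genes. It was found in 23.5%, 48.0% and 31.3% of smooth muscle-like cells, 27.5%, 73.6% and 47.8% of fibroblast-like cells and 26.9%, 23.8% and 25.3% of endothelial-like cells at 81, 84 and 88 weeks. Of smooth muscle-like cells with 1 hashtag, 3.51% with T cell RNA (6 of 171; 95% interval 1.30 to 7.48) and 0.633% without it (2 of 316; 0.0767 to 2.27) were cycling. With no hashtag the order was the opposite, with 0.455% (5 of 1100) with and 0.719% (23 of 3199) without T cell RNA, and over all smooth muscle-like cells the shares were 0.865% and 0.711%. Mitosis-positive were 4 of 171 and 0 of 316, and the latter has an exact upper 95% limit of 1.16% (3 cells of 316 would be 0.949%). Over all smooth muscle-like cells without T cell RNA, 1 of 3515 (0.0284%) was mitosis-positive and 24 replication-positive. In endothelial-like cells the shares differed less, with 3.39% (8 of 236) with and 2.84% (20 of 703) without T cell RNA, and in fibroblast-like cells with 4.80% (6 of 125) and 3.49% (3 of 86). With no hashtag they were 0 of 29 and 4 of 87 in endothelial-like cells and 6 of 266 and 15 of 811 in fibroblast-like cells. With 1 hashtag the intervals overlapped in all 3 classes. In the cluster of smooth muscle and T cell markers, outside these classes, 7.36% of 326 cells with T cell RNA were cycling. The part of T cell RNA in these shares was not tested beyond this split.

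**Figure D5:**
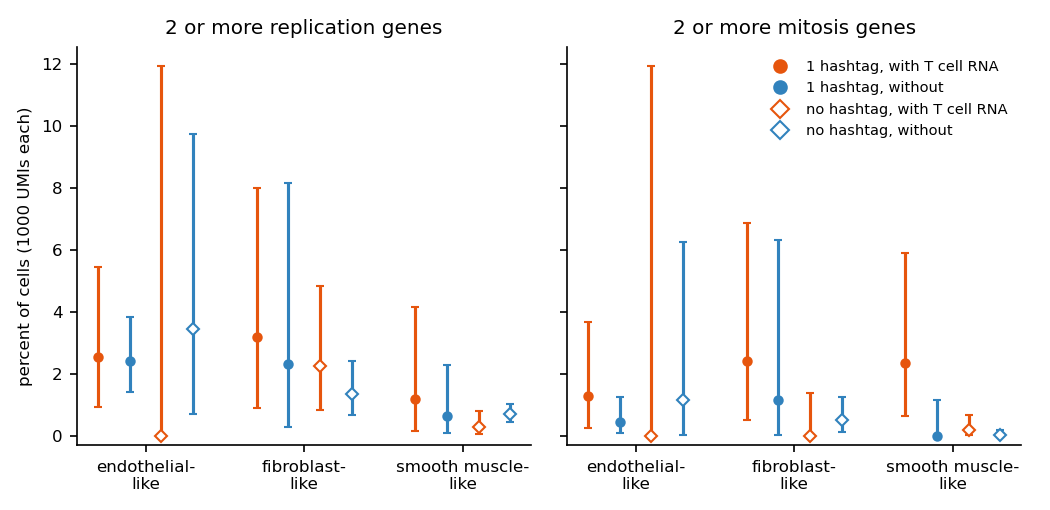
Percent of wall cells with at least 2 replication genes (left) or at least 2 mitosis genes (right), each cell thinned to 1000 UMIs, with and without T cell RNA; bars are exact binomial 95% intervals, filled circles cells with 1 hashtag and open diamonds cells with none. Among smooth muscle-like cells without T cell RNA, 0 of 316 and 1 of 3199 were mitosis-positive.

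Wall cells that clearly carried the program were single cells. Among the 3515 smooth muscle-like, 897 fibroblast-like and 790 endothelial-like cells without T cell RNA, 4 had 20 or more UMIs of either list, a rule chosen after the data were seen. A fibroblast-like cell with no hashtag held 249 mitosis UMIs of 24 of 25 mitosis members among 13021 UMIs, with 25 of Top2a and 11 of Mki67, 5 replication UMIs, all 9 fibroblast markers and no UMI of Ptprc, the pan-leukocyte gene. It gave 249 of the 572 mitosis UMIs (43.5%) of the 897 fibroblast-like cells without T cell RNA. The other 3 were replication cells, a smooth muscle-like cell with 59 replication and 6 mitosis UMIs, an endothelial-like cell of the 88-week set with 47 and 5, and a fibroblast-like cell with 33 and 6. The 4 cells held 1.72 to 4.05 times the median UMIs of their class. The doublet caller had removed 6 more such barcodes without T cell RNA, among its 120 calls of that kind. A barcode there held 177 mitosis and 74 replication UMIs with 7 of 8 smooth muscle markers, and another 46 and 39 with 7 of 9 fibroblast markers. Whether these were doublets was not tested.

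The next comparison set endothelial-like against smooth muscle-like sums. Of the 44 members, 16 passed the filter on low counts, 11 replication and 5 mitosis genes, and edgeR called 10 higher in endothelial-like cells, where 16.7% of all genes were, and 0 lower, where 15.7% were (32.5% either way). The 10 were Mcm3, Mcm4, Mcm5, Cdc6, Hells and Tyms of replication and Top2a, Mki67, Nusap1 and Cenpa of mitosis. Some members, such as Cenpa and Mcm5, passed the filter through the endothelial-like sums where they were high. The count and medians of this comparison are thus a description and not support. Cdc6 had 11.9, 8.29 and 9.47 CPM in endothelial-like sets, 52 UMIs against 3 in all smooth muscle-like sets (fitted log2 fold change 4.13, SE 0.592, edgeR adjusted p = 3.1e-05). It passed the filter through the endothelial-like sums, and the ratio of levels was 20.2 with an exact 95% counting interval of 6.54 to 101. Cenpa, the histone variant that marks centromeres, had 16.4, 12.4 and 13.1 CPM against 1.77, 2.15 and 1.31 CPM, with no overlap (log2 fold change 2.88, SE 0.375, edgeR adjusted p = 1.2e-05). Mcm5 had 8.18, 5.53 and 11.6 CPM against 4.13, 1.29 and 0.872 CPM (log2 fold change 2.05, SE 0.495).

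Mki67 had 12.6, 5.99 and 17.4 CPM in endothelial-like sets against 1.18, 5.59 and 4.80 CPM, and Top2a 6.70, 12.4 and 25.8 CPM against 3.54, 5.16 and 9.16 CPM. Their log2 fold changes were 1.44 (SE 0.427) and 1.28 (SE 0.272), and the sets of the classes overlapped for Top2a and lay close, at 5.99 against 5.59 CPM, for Mki67. Pcna (0.69) and Mcm6 (-0.71) did not reach the fold asked for. Over the members tested the median log2 fold change was 1.10 for replication and 1.40 for mitosis genes, against 0.03 over all genes. Of further genes, 8 of 31 replication genes were higher and 0 lower, and 2 of 14 mitosis genes were higher and 3 lower. T cell RNA stood at 196, 259 and 215 CPM in the endothelial-like and 79.1, 188 and 95.9 CPM in the smooth muscle-like sets. Without the cells with T cell RNA, 6 of 11 members tested were called higher. The share of all genes called in that fit is not given, so this count is a description. With the cluster of smooth muscle and T cell markers counted as smooth muscle-like, 5 were called higher and 1 lower, and Mki67 (-0.85) and Top2a (-0.37) changed sign.

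Fibroblast-like sums were set against smooth muscle-like sums in the same way. Of the 44 members, 14 passed the filter, and edgeR called 10 higher in fibroblast-like cells, where 13.2% of all genes were, and 1 lower, where 11.1% were (24.2% either way). The 10 were Mcm3, Mcm4, Atad2, Gins2, Tyms and Pclaf of replication and Top2a, Mki67, Nusap1 and Cenpe of mitosis. Some members, such as Cenpe and Mki67, passed the filter through the fibroblast-like sums where they were high. The count and medians of this comparison are thus a description and not support. Cenpe, a kinetochore motor, had 13.6, 7.41 and 15.2 CPM against 0, 2.15 and 0.436 CPM (log2 fold change 3.20, SE 0.717, edgeR adjusted p = 0.00078, 19 against 6 UMIs). Mki67 had 32.6, 25 and 25.4 CPM against 1.18, 5.59 and 4.80 CPM, with no overlap (log2 fold change 2.51, SE 0.413). Top2a had 51.7, 21.3 and 10.2 CPM, and its lowest fibroblast-like set lay just above the highest smooth muscle-like set of 9.16 CPM.

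The gene called lower was Mcm6, with 16.3, 9.26 and 20.3 CPM in fibroblast-like against 29.5, 22.8 and 28.3 CPM in smooth muscle-like sets, with no overlap (log2 fold change -1.09, SE 0.307, edgeR adjusted p = 0.00574). Pcna had 68.0, 44.4 and 58.4 CPM against 35.4, 39.6 and 42.7 CPM and was not called (log2 fold change 0.29). Over the members tested the median was 1.15 for replication and 2.21 for mitosis genes, against 0.00 over all genes, and of further genes 3 of 27 replication and 1 of 10 mitosis genes were higher. Fibroblast-like cells held T cell RNA of 182, 1448 and 1024 CPM, of which the last 2 lay above every smooth muscle-like set, and 7 of 7 double-positive stage markers tested were higher in them by edgeR. Without the cells with T cell RNA, 4 members passed the filter, and 0 were called higher and 0 lower. With the filter lifted as well, 0 of 44 were called higher and 1 lower, and Mki67 kept a log2 fold change of 2.88 that was not called. In fibroblast-like cells with no hashtag Mki67 stood at 6.89 CPM and Top2a at 9.74 CPM, with T cell RNA at 162 CPM. Without the set of 84 weeks, 6 members were called higher and 0 lower. DESeq2 called 6 higher and 0 lower.

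Mcm6 stood out among the MCM genes in smooth muscle-like cells. In smooth muscle-like cells it was next after Pcna (39.3 CPM) among the 19 replication genes, with a mean of 26.9 ± 3.59 CPM (SD, n = 3), while Mcm5 had 2.10, Mcm2 3.10, Mcm3 4.35, Mcm7 5.91 and Mcm4 8.70 CPM. In T cell-like cells the 6 MCM genes lay between 68.5 and 177 CPM, with Mcm6 the highest and Mcm7 (174 CPM) and Mcm3 (171 CPM) close to it. Smooth muscle-like cells with no hashtag held 29.5 CPM of Mcm6. All 3 smooth muscle-like sets lay above all 3 endothelial-like sets (16.4, 15.2 and 18.9 CPM), whereas for 12 of the other replication genes all endothelial-like sets lay above. The test of the Mcm6 difference is the uncalled log2 fold change of -0.71 given above (edgeR adjusted p = 0.00587). The count of 12 is a description, since the same count over all genes is not given. In smooth muscle-like cells 12 of the 19 replication genes had a mean under 5 CPM.

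A cluster with markers of macrophages and B cells lay between. Its replication list stood at 517, 1141 and 1214 CPM and its mitosis list at 1324, 1734 and 1286 CPM at 81, 84 and 88 weeks, in 14, 94 and 36 cells. The T cell RNA in it was 218, 2403 and 2563 CPM. In the cluster of smooth muscle and T cell markers replication genes stood at 148, 267 and 204 CPM and mitosis genes at 493, 335 and 268 CPM, with 1321 to 1849 CPM of T cell RNA. Mitosis genes exceeded replication genes in the 3 hashtag sets of both clusters, by a log2 ratio of 0.08 at 88 weeks in the macrophage and B cell cluster. In its 16 cells with no hashtag the order was the opposite, with 1042 CPM of replication and 545 CPM of mitosis genes. Neither cluster was tested, and the part of T cell RNA in them was not tested.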

How the data were processed

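Raw UMI counts, not normalised, were deposited by the authors for 26916 barcodes, made with Cell Ranger 6.0.1 per the file headers; Seurat 4.0.5 and mm10 are named in the submitters' processing notes. Other columns, such as barcodes and the hashtag table, were used as deposited. Hashtags were called with HTODemux of Seurat 5.3.0 (quantile 0.99). Cells had at least 500 genes, at least 1000 UMIs and under 15% mitochondrial UMIs. Scrublet's automatic threshold marked 1 cell, so the Otsu threshold of the simulated scores was used, set after seeing the data. It called 423 of 11301 cells (3.74%), 39.8% of simulated doublets and 9.93% of barcodes with more than 1 hashtag. Scanpy 1.11.5 made the clusters (Leiden resolution 0.8). A class needed a marker score of 1.5 with at least 3 markers. The score of 0.5 from which a cluster counted as mixed, and that of 1 for stages, were set after seeing the data, and classes can differ from those of the study. UMIs were summed per set and class with at least 10 cells and tested with edgeR 4.0.16 (quasi-likelihood, TMM, its low-count filter). The set was a block, and p-values were adjusted over all genes by the Benjamini-Hochberg method. DESeq2 1.42.0 was an alternative. On simulated data for endothelial-like against smooth muscle-like cells, edgeR recovered 44 of 100 genes changed 2-fold and 100 of 100 changed 4-fold. It made 1 false call among 10274 genes. The changed genes were drawn from well-counted genes, and all genes were given the same fixed spread. These rates thus do not carry over to members with few UMIs. The pairing of sums across classes comes from the animal, since each hashtag marks 1 animal. Named are Pcna, Mcm5, Mki67, Top2a, the highest member of each role group in T cell-like cells and the called members with the largest change each way. Other genes named for how they stood out were chosen after their values were seen. The members and lists were chosen with earlier results of these data known. Fewer cells that divide and less RNA per dividing cell cannot be told apart in the sums.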

Additional observations from a re-analysis of the deposited data

Results flagged for a closer look

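The balance of mitosis to replication UMIs had opposite signs in T cell-like cells and in 2 wall classes, in every set. The mean log2 ratio was 1.09 in T cell-like cells, against -1.42 in endothelial-like cells and -1.62 in smooth muscle-like cells. An exact paired permutation test over 3 animals cannot go below p = 0.25, and so could not pass 0.05. Depth and T cell RNA differ between the classes as well, and their part was not tested.

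Mitosis genes were also counted in barcodes that enter no comparison, above the level that a count of 0 allows. They stood at 1651 CPM in the 526 barcodes with more than 1 hashtag, 1925 CPM in the 423 doublet calls and 1025 CPM in the 15615 barcodes that failed the filters. Replication genes stood at 895, 828 and 499 CPM in the same barcodes, and T cell RNA at 3190, 1895 and 4297 CPM. Their cell types were not assigned.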

How the results depend on the processing

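Of the alternative values of the summary results, 126 stayed within the spread or within 1.5 times the count, and 40 moved. The 44 members stayed higher in T cell-like cells under all alternatives run. For endothelial-like against smooth muscle-like cells, the 10 members called higher became 4 with DESeq2, 6 without wall cells with T cell RNA and 5 with the cluster of smooth muscle and T cell markers, which also gave 1 lower. For fibroblast-like against smooth muscle-like cells, the 10 higher and 1 lower became 6 and 0 with DESeq2, 6 and 0 without the set of 84 weeks (6 to 11 higher and 0 to 1 lower over the sets left out in turn), 0 and 0 without wall cells with T cell RNA, 0 higher with the filter lifted too, and 2 higher with that cluster. For the selected-like stage, the 8 higher and 1 lower became 2 and 0 with DESeq2, 5 higher with no filter on low counts, 2 and 0 under 10% mitochondrial UMIs, and 2 and 3 with clusters made without the listed genes alone. Leaving out the set of 84 or 88 weeks could not be fitted there. The cause of these moves was not tested, and the shares of all genes called under the alternatives are not given. The pairing by animal mattered little: without the block, members called higher were 44 in both T cell-like comparisons, 10 for endothelial-like, 9 for fibroblast-like and 7 for selected-like cells, where Clspn (1.02) lost its call. In the 150 bases before the start, E2F letters were in 5 replication and CHR letters in 7 mitosis members, in place of 10 and 17. The alternatives with this window, with the mixed cluster and with the filter lifted as well were chosen after seeing the data.

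The cycling shares moved with the rule. With at least 3 members they were 45.5% in T cell-like, 0.222% in endothelial-like, 0.190% in smooth muscle-like, 1.82% in fibroblast-like, 4.47% in double-positive-like and 6.64% in selected-like cells. Thinned to 2000 UMIs they were 57.6%, 9.25% and 3.65% in T cell-like, endothelial-like and smooth muscle-like cells, 21.7% in the double-positive-like and 23.1% in the selected-like stage. By T cell RNA, the shares with at least 3 members were 0.585% with and 0% without in smooth muscle-like, 0.847% and 0% in endothelial-like and 0% without in fibroblast-like cells. At 2000 UMIs they were 2.86% without in smooth muscle-like cells, and 8.19% with and 9.55% without in endothelial-like cells. Among single genes, the signs of Mki67 (-0.85) and Top2a (-0.37) in endothelial-like against smooth muscle-like cells turned with the added cluster, that of Nusap1 (-3.44) in fibroblast-like cells without T cell RNA and filter, and that of Cenpf (-1.75) in the selected-like stage with the other clusters. Depth limits the wall, where most mitosis members lie under 5 CPM.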
